A study of Homo sapiens with 9 samples.

Results

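Genes of the cell cycle and of DNA replication were examined in the gastric cancer line AGS, which carried a stable shRNA either against HIF1A (HIF-) or of scrambled sequence (SCR). The 51 genes were a fixed list of cyclins, kinases, checkpoint proteins, spindle proteins and replication factors, matched by gene symbol among the 17054 genes with a probe on both array versions. All 51 had such a probe, and 50 of them were among the 11073 named genes tested. AGS is an established human gastric adenocarcinoma line, grown here as adherent cultures. The paper states normal oxygen for its proliferation and tracer assays and gives no oxygen level for the cultures used on the arrays. RNA of 3 replicates of each group was hybridized to Illumina BeadChips. HIF- and SCR cells of a replicate were on the same chip, with 1 array each in replicates 1 and 2 and with 3 HIF- and 2 SCR arrays, as technical repeats, in replicate 3. The methods call the replicates independent experiments. Both groups carry an integrated hairpin, and the sources used here do not say whether the transduced cells were a pool or 1 clone.

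The cell cycle is driven by cyclin-dependent kinases (CDKs), each active only when bound to a cyclin. In G1, cyclin D with CDK4 or CDK6 and cyclin E with CDK2 inactivate RB1 and so release E2F transcription factors, which switch on the genes for DNA replication. Cyclin A and cyclin B with CDK1 then carry the cell into mitosis, and the transcripts of the mitotic genes peak in G2 and M. Transcripts of both sets are abundant in dividing tumour cells and low in resting cells. The 51 genes were therefore read as 13 replication genes, 11 G1 regulators and 27 mitotic genes, and the replication genes were set against the mitotic genes.

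The replication and the mitotic genes differed in the promoter letters that are known to time them. Of the 51 genes, 40 had a promoter in the RefSeq table (build GRCh38.p14), with 56 windows of 300 bases that run from 250 bases before a transcription start to 50 bases into the transcript. E2F letters (TTTCGCGC, TTTGGCGC, TTTCCCGC or TTTGCCGC on either strand) were present in 56.2% of the 16 windows of replication genes and in 10.3% of the 29 windows of mitotic genes, against 3.31% of all 35116 windows in the table. The CHR letters of mitotic promoters (TTTGAA or TTCGAA) were present in 12.5% of the replication windows and 62.1% of the mitotic windows, against 16.4% of all windows. The CCAAT letters were present in 75% of the replication windows and 79.3% of the mitotic windows, against 34.6% of all windows. Among the 11 windows of G1 regulators the shares were 18.2% for E2F, 0% for CHR and 45.5% for CCAAT. The core letters bound by HIF-1 (ACGTG or GCGTG) were present in 75% of the replication, 45.5% of the G1 and 58.6% of the mitotic windows, against 48.4% of all windows. A window counted once however many matches it held, TTCGAA reads the same on both strands, CACGTG holds ACGTG on both strands, and matches of different motifs may share end letters. Such matches describe the letters and are not evidence of binding.

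Promoters of 5 genes are shown because the expression results below turn on them or on their list, with E2F, CHR and CCAAT letters of either strand in capitals and all on the plus strand. RRM1 lies at chr11:4094435-4094734, CDC6 at chr17:40287629-40287928, CDT1 at chr16:88803539-88803838, KIF11 at chr10:92592880-92593179 and PLK1 at chr16:23678639-23678938.
RRM1: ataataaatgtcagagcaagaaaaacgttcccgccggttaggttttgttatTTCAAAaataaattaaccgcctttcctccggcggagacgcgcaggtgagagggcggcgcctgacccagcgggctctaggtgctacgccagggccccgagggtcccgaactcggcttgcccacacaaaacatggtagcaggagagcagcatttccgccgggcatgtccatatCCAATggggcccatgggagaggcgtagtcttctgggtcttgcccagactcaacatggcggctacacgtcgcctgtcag
CDC6: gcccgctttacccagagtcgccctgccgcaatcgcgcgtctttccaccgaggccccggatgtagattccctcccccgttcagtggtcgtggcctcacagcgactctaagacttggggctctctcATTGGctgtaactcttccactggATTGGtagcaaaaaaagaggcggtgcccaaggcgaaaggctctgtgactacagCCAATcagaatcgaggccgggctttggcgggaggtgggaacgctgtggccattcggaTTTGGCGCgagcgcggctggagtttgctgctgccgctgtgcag
CDT1: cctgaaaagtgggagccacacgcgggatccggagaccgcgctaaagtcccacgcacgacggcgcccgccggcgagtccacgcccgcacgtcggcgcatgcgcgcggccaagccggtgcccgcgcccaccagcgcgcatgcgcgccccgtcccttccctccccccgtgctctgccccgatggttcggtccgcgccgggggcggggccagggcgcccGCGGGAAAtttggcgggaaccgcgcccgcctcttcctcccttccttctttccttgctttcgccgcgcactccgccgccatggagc
KIF11: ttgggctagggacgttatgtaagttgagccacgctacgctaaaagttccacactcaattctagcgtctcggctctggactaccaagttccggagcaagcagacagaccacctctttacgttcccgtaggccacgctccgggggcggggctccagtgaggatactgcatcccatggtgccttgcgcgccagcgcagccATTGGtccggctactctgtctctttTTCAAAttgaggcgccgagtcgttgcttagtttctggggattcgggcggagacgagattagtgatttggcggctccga
PLK1: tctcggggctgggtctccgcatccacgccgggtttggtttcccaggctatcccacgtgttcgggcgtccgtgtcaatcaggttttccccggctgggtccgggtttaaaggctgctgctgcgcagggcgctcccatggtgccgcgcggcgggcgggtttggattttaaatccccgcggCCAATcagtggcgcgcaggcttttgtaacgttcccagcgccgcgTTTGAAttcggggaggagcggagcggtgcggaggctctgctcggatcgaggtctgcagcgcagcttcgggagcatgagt
With the start counted as position 1, the E2F letters of CDC6 lay at positions 8 to 15 and those of CDT1 at -35 to -28. The CHR letters lay at -28 to -23 in KIF11 and at -29 to -24 in PLK1, each with CCAAT letters further upstream. RRM1 had no E2F match, and its TTTGAA letters lay at -199 to -194.

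The target of the hairpin was lower in the HIF- cells of every replicate. HIF1A, the oxygen-regulated subunit of HIF-1, had normalized log2 signals of 6.35, 5.33 and 5.95 in the HIF- cells of replicates 1, 2 and 3, against 9.02, 7.57 and 7.97 in the SCR cells. The groups did not overlap, and the log2 fold change was -2.31 (SE 0.16, adjusted p = 0.0044 from limma with Benjamini-Hochberg adjustment). Of 7 epithelial markers, 6 were detected on all 9 arrays (detection p under 0.01). Of 6 fibroblast, 5 immune and 4 endothelial markers measured, only LYZ was, with 0 fibroblast and 0 endothelial markers detected on all arrays. The fibroblast marker COL1A1 was detected on 8 arrays, the endothelial marker PECAM1 on 3 and the immune marker CD14 on 1. The arrays of replicate 1 differed in brightness as deposited, with a median log2 signal over the common probes of 5.34 on the HIF- array and 5.59 on the SCR array, and a median over the 51 genes of 9.95 and 10.69. In replicate 2 the medians over the 51 genes were 8.33 in HIF- and 8.43 in SCR, and in replicate 3 they lay between 8.86 and 8.89 on the HIF- arrays and between 8.68 and 8.74 on the SCR arrays. Quantile normalization removed differences in whole-array brightness before the comparisons below, and any part of the brightness of replicate 1 in them was not tested beyond the alternative scalings given.

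Cell cycle genes were expressed in both groups. Of the 51 transcripts, 49 were detected on all 9 arrays. E2F1 was detected on 7 arrays, 4 of them HIF- arrays. CCNE2 was detected on 0 arrays, with log2 signals between 4.16 and 4.23 in all 6 samples, and was removed by the filter on dim probes. Its homologue CCNE1, the other E-type cyclin, was detected on all 9.

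No cell cycle or replication gene passed the test for a difference between HIF- and SCR cells. At an adjusted p under 0.05 from limma, 0 of the 50 genes were called, where 0.115% of all 12195 genes and unnamed probes tested were called. The lowest adjusted p among the 50 was 0.60 (RRM1). At an unadjusted p under 0.05, 1 gene was lower in HIF- cells (RRM1) and 0 were higher, where 4.13% of all genes were lower and 3.41% higher. By the rule of the study's methods, rebuilt as a place among the top 10% of scaled differences with 1 sign in every replicate, 0 of the 50 were called and 0.763% of all genes were. The log2 fold changes ran from -0.36 (RB1) to 0.29 (MKI67), with standard errors between 0.12 and 0.18. The 95% interval lay within 0.5 log2 units of 0 for 33 of the 50 genes and within 1 log2 unit for all 50. Of all 12195 genes tested, 7464 and 11913 had such intervals. Changes as large as that of HIF1A were outside the interval of every gene tested on the list. The intervals reached furthest to -0.75 log2 units (RB1) and to 0.66 (MKI67), so changes of that size were not outside them. In bulk RNA, fewer cells in a phase and less of a transcript per cell cannot be told apart.

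**Figure D1:**
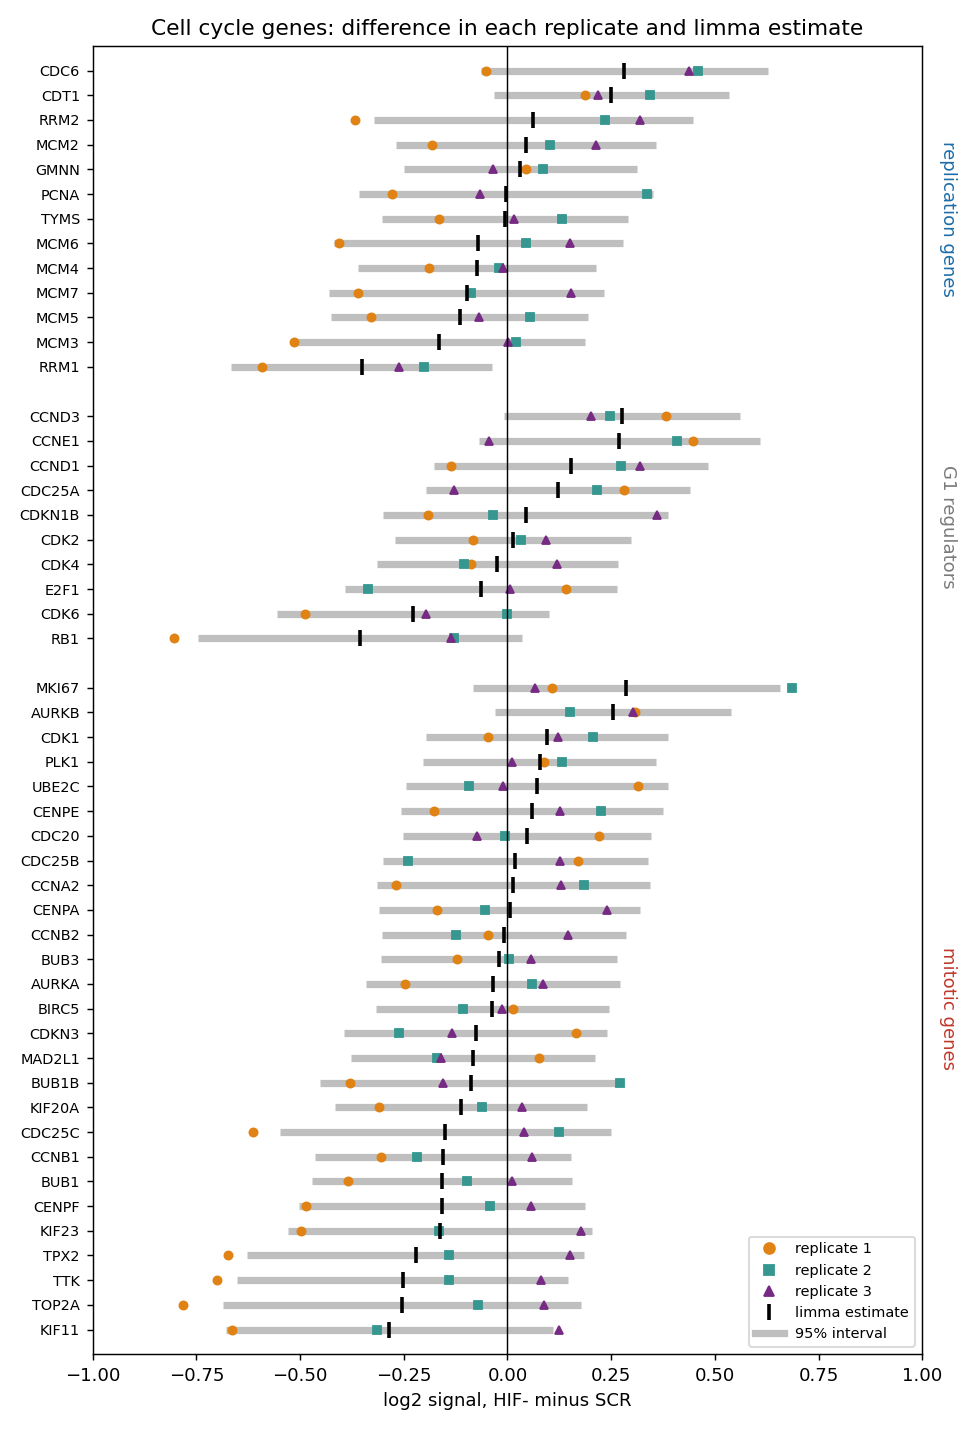
Difference in normalized log2 signal, HIF- minus SCR (x axis), for the 50 genes tested (rows), grouped as replication genes, G1 regulators and mitotic genes; coloured points are replicates 1, 2 and 3, black ticks the limma estimates and grey bars their 95% intervals. The interval of RRM1 alone lies on 1 side of 0, and in replicate 1 the points of 35 genes lie below 0.

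Few of the genes moved the same way in all replicates. The difference had 1 sign in replicates 1, 2 and 3 for 9 of the 50 genes. It was positive for 5 (CDT1, CCND3, PLK1, AURKB and MKI67), where 14.5% of all genes were higher in every replicate. It was negative for 4 (RRM1, MCM4, RB1 and CDK6), where 17.4% of all genes were lower in every replicate. The replication genes and the G1 regulators had members in both directions, and the 3 mitotic genes were all positive.

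Of the replication genes, RRM1 had the most negative estimate. It encodes the large subunit of ribonucleotide reductase, which makes deoxynucleotides. Its log2 signal was 11.13, 10.90 and 10.45 in the HIF- cells of replicates 1, 2 and 3, against 11.72, 11.10 and 10.71 in the SCR cells. Every HIF- sample was below the SCR sample of its replicate, and in replicate 3 the HIF- arrays (10.42 to 10.48) lay below the SCR arrays (10.65 to 10.77). The log2 fold change was -0.35 (SE 0.13, 95% interval -0.67 to -0.04, unadjusted p = 0.033 and adjusted p = 0.60 from limma). Without replicate 1 it was -0.23, and the unadjusted p was then no longer under 0.05, nor was it without replicate 3.

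RRM2, the small subunit of the same enzyme, behaved differently between replicates. Its log2 signal was 8.88, 8.74 and 8.44 in HIF- cells and 9.25, 8.51 and 8.12 in SCR cells. HIF- was the lower in replicate 1 and the higher in replicates 2 and 3, and the log2 fold change was 0.06 (SE 0.16, unadjusted p = 0.71 from limma). PCNA, the sliding clamp of the replicative polymerases, had signals of 10.26, 10.17 and 9.99 in HIF- cells and 10.54, 9.84 and 10.06 in SCR cells. Its differences of -0.28, 0.34 and -0.07 changed sign between replicates, with a log2 fold change of -0.0036 (SE 0.15, unadjusted p = 0.98 from limma). TYMS, thymidylate synthase, had differences between -0.16 and 0.13.

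CDT1 and CDC6 load the MCM helicase onto origins in G1, and geminin (GMNN) inhibits CDT1. All 3 had positive estimates that did not pass the test. CDT1 had log2 signals of 9.17, 9.55 and 8.37 in HIF- cells and 8.99, 9.20 and 8.16 in SCR cells. HIF- was the higher in each replicate, but in replicate 3 the HIF- arrays (8.15 to 8.75) and the SCR arrays (7.89 to 8.42) overlapped. The log2 fold change was 0.25 (SE 0.12, unadjusted p = 0.075 and adjusted p = 0.68 from limma). CDC6, its partner in loading, had differences of -0.05, 0.46 and 0.44, with a log2 fold change of 0.28 (SE 0.15). Without replicate 1 it was the 1 gene of the list at an unadjusted p under 0.05. Geminin had differences between -0.04 and 0.08.

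The 6 subunits of the MCM helicase, which unwinds DNA at the fork, were all lower in the HIF- cells of replicate 1, by 0.18 (MCM2) to 0.52 (MCM3) on the log2 scale. In replicate 2 the differences lay between -0.09 and 0.10 and in replicate 3 between -0.07 and 0.21, with 2 of the 6 below 0 in each. With scaling to a common median, 6, 4 and 1 were below 0 in replicates 1, 2 and 3. MCM4 alone of the 6 was below 0 in every replicate, with signals of 10.60, 10.42 and 9.63 in HIF- cells and 10.79, 10.44 and 9.64 in SCR cells. The groups were almost level in replicates 2 and 3, and its log2 fold change was -0.07 (SE 0.12, unadjusted p = 0.56 from limma). A second MCM4 probe had differences of 0.05, 0.27 and 0.04, all above 0.

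Among the G1 regulators, RB1, the pocket protein that holds E2F inactive, had the most negative estimate. Its log2 signal was 7.70, 7.09 and 6.67 in HIF- cells, against 8.50, 7.22 and 6.81 in SCR cells. HIF- was lower in each replicate, by 0.80, 0.13 and 0.14, so that replicate 1 carried most of the difference. The log2 fold change was -0.36 (SE 0.17, 95% interval -0.75 to 0.04, unadjusted p = 0.069 and adjusted p = 0.67 from limma), and it was -0.13 without replicate 1. CDK6, a kinase of cyclin D, had signals of 10.88, 10.43 and 10.13 in HIF- cells and 11.37, 10.43 and 10.32 in SCR cells. The differences were -0.49, -0.0013 and -0.20, with a log2 fold change of -0.23 (SE 0.14, unadjusted p = 0.14 from limma), which was -0.10 without replicate 1.

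CCND3, cyclin D3, had log2 signals of 10.60, 10.46 and 8.79 in HIF- cells and 10.22, 10.21 and 8.59 in SCR cells. HIF- was higher in each replicate, by 0.38, 0.25 and 0.20, but the arrays of replicate 3 overlapped (8.62 to 8.97 in HIF-, 8.34 to 8.84 in SCR). The log2 fold change was 0.28 (SE 0.12, 95% interval -0.01 to 0.56, unadjusted p = 0.056 and adjusted p = 0.66 from limma). CDKN1B, the CDK inhibitor p27, had signals of 8.26, 8.41 and 8.80 in HIF- cells and 8.45, 8.45 and 8.44 in SCR cells. Its difference was below 0 in replicates 1 and 2 and 0.36 in replicate 3, with a log2 fold change of 0.04 (SE 0.15, unadjusted p = 0.77 from limma). CCNE1 and the phosphatase CDC25A, which removes the inhibitory phosphates of CDK2, had positive differences in replicates 1 and 2 (0.22 to 0.45) and negative ones in replicate 3 (-0.13 to -0.05). CCND1, CDK2, CDK4 and E2F1 each changed sign between replicates, with estimates between -0.06 and 0.15.

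**Figure D2:**
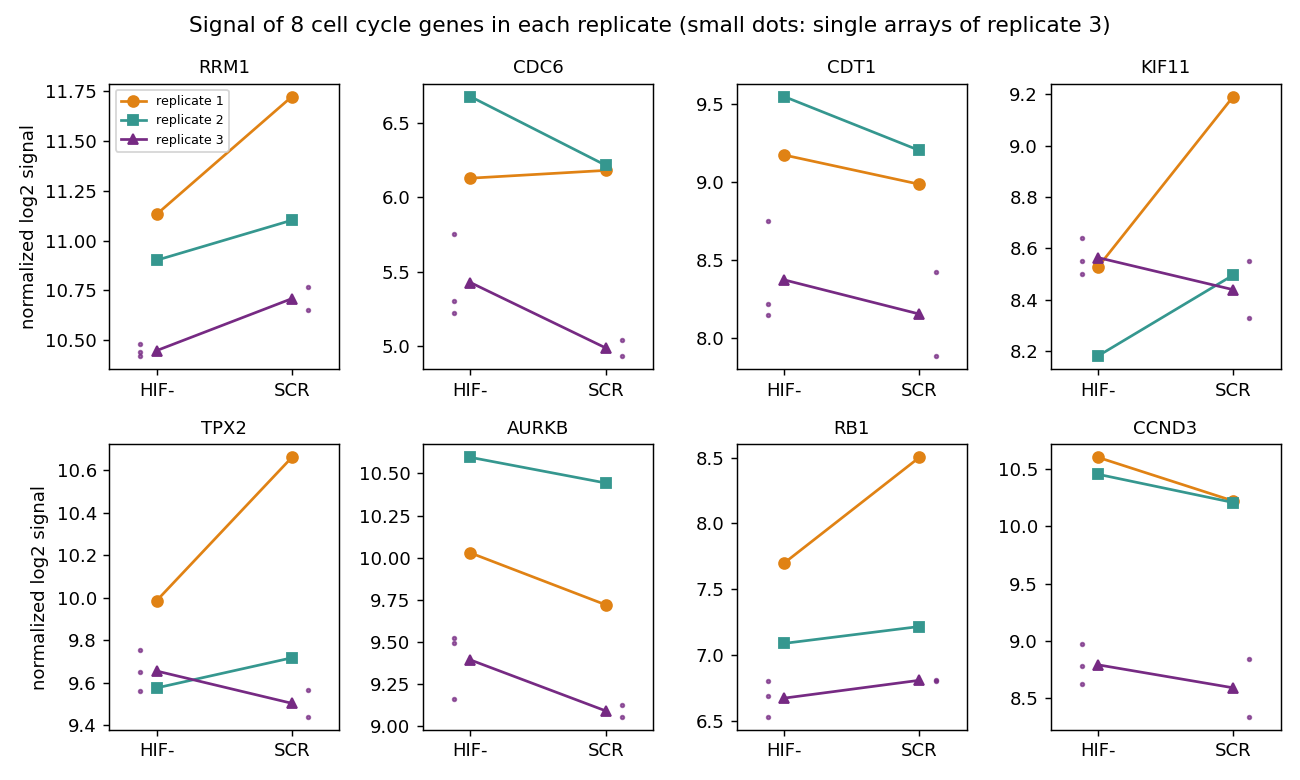
Normalized log2 signal (y axis, its range set for each gene) of 8 genes in HIF- and SCR cells, with a line joining the samples of each replicate and small dots for the single arrays of replicate 3. RRM1 and RB1 are lower in HIF- in every replicate, CDT1, AURKB and CCND3 are higher, and KIF11 and TPX2 are lower in replicates 1 and 2 and higher in replicate 3.

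Of the mitotic genes, the kinases AURKB and PLK1 and the proliferation antigen MKI67 were higher in HIF- in each replicate without passing the test. AURKB, the kinase of the chromosomal passenger complex, had log2 signals of 10.03, 10.60 and 9.39 in HIF- cells and 9.72, 10.44 and 9.09 in SCR cells. The HIF- arrays of replicate 3 (9.16 to 9.53) lay above the SCR arrays (9.06 to 9.13), and the log2 fold change was 0.25 (SE 0.12, unadjusted p = 0.073 and adjusted p = 0.67 from limma). With the first technical arrays only it was 0.17. PLK1, which drives entry into mitosis, had signals of 7.68, 8.12 and 6.57 in HIF- cells and 7.59, 7.99 and 6.56 in SCR cells. Its differences were no larger than 0.13, with a log2 fold change of 0.08 (SE 0.12, unadjusted p = 0.54 from limma). In replicate 3 its difference was 0.01, and the HIF- arrays (6.52 to 6.64) and SCR arrays (6.42 to 6.69) overlapped. MKI67, which encodes Ki-67, had signals of 5.55, 5.83 and 5.04 in HIF- cells and 5.44, 5.15 and 4.97 in SCR cells. Its arrays of replicate 3 overlapped (4.94 to 5.19 in HIF-, 4.95 to 4.99 in SCR). Replicate 2 carried most of its log2 fold change of 0.29 (SE 0.16, unadjusted p = 0.11 from limma), which was 0.09 without that replicate. The estimate for this dim probe was 0.16 with an offset of 50 in place of 16 in the background correction. It was 0.13 with scaling to a common median and 0.15 with the authors' processed values.

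Several spindle proteins had differences that varied widely between replicates. TPX2, which activates AURKA on the spindle, had log2 signals of 9.99, 9.58 and 9.66 in HIF- cells and 10.66, 9.72 and 9.50 in SCR cells. HIF- was lower by 0.67 in replicate 1 and by 0.14 in replicate 2 and higher by 0.15 in replicate 3, with a log2 fold change of -0.22 (SE 0.17, unadjusted p = 0.24 from limma), which was 0.01 without replicate 1. TPX2, the spindle motor KIF11 and the midzone motors KIF20A and KIF23 all had this pattern, with medians of -0.58, -0.15 and 0.14 over the 4 genes in replicates 1, 2 and 3. The 4 kept these signs with every background correction and scaling tried, and with the first array of each group only in replicate 3, 1 of the 4 fell below 0 there. KIF11 had the most negative estimate of the mitotic genes, -0.28 (SE 0.17), and without replicate 3 it was the 1 gene at an unadjusted p under 0.05.

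TOP2A, the topoisomerase that untangles sister chromatids, was similar, with log2 signals of 10.84, 10.81 and 10.78 in HIF- cells and 11.62, 10.88 and 10.70 in SCR cells. The SCR sample of replicate 1 stood above the other 5 samples, and the log2 fold change was -0.25 (SE 0.18, unadjusted p = 0.21 from limma), against 0.01 without replicate 1. The checkpoint kinase TTK had differences of -0.70, -0.14 and 0.08. CDK1 and its cyclins had smaller estimates, 0.09 for CDK1, 0.01 for cyclin A2 (CCNA2), -0.15 for cyclin B1 (CCNB1) and -0.01 for cyclin B2 (CCNB2). CDC20 and UBE2C, a coactivator and an E2 enzyme of the anaphase-promoting complex, had 0.05 and 0.07. The checkpoint genes BUB1, BUB1B, BUB3 and MAD2L1 lay between -0.16 and -0.02, the centromere genes CENPA, CENPE and CENPF between -0.16 and 0.06, and survivin (BIRC5), AURKA, KIF20A, CDC25B, CDC25C and CDKN3 between -0.15 and 0.02.

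The median over each list was close to 0 in the fit, and the medians of the replication and mitotic genes lay furthest from 0 in replicate 1. The 13 replication genes had median differences of -0.28, 0.08 and 0.02 in replicates 1, 2 and 3 and a median log2 fold change of -0.01. The 10 G1 regulators tested had -0.09, 0.02 and 0.05, with a median log2 fold change of 0.03. The 27 mitotic genes had -0.18, -0.06 and 0.07, with -0.04. All genes tested had -0.02, -0.01 and -0.01, with -0.01. The median of the replication genes minus that of the mitotic genes was -0.10, 0.15 and -0.05 in the 3 replicates and 0.03 in the fit (SD 0.13 over the replicates). The contrast therefore changed sign between replicates and was smaller than their spread, and in the fit it was -0.06 without replicate 2 and -0.0076 without replicate 3. A paired permutation over 3 replicates could not go below p = 0.25, so it was not tested.

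**Figure D3:**
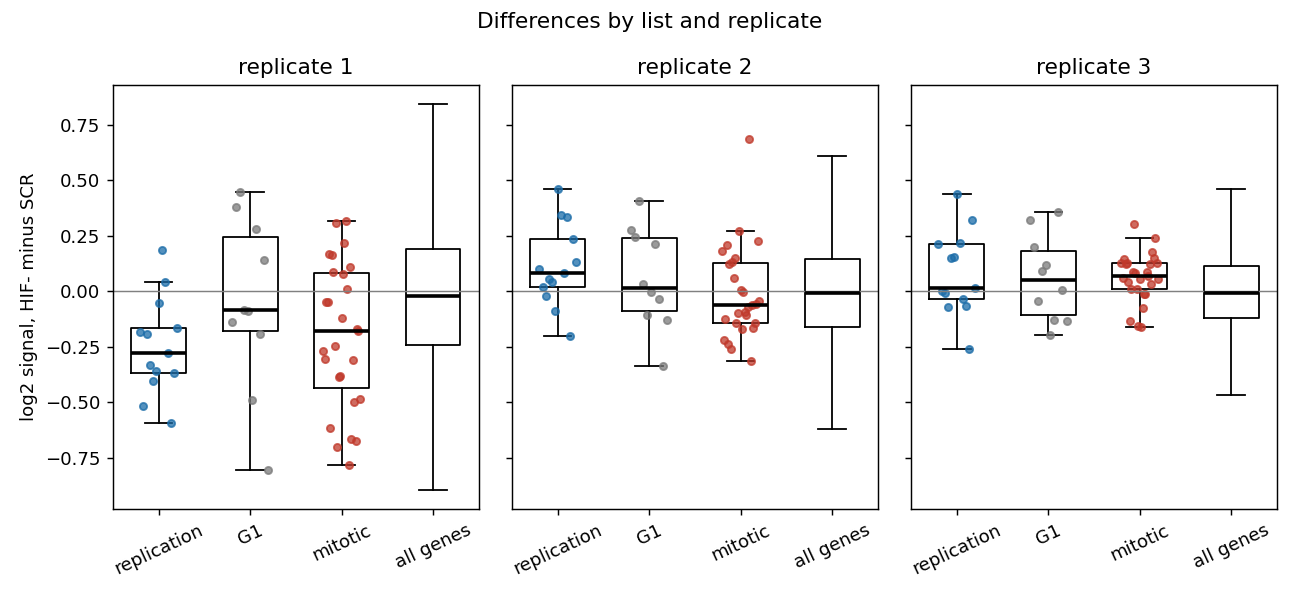
Difference in log2 signal, HIF- minus SCR (y axis), in replicates 1, 2 and 3 (panels) for the 13 replication genes, 10 G1 regulators and 27 mitotic genes tested and for all 12195 genes; points are genes, boxes span the quartiles with the median as a thick line, and whiskers reach the last value within 1.5 box lengths. The medians of the replication and mitotic genes lie below 0 in replicate 1 and close to 0 in replicates 2 and 3.

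The replicates differed in direction. Of the 50 genes, 35, 25 and 15 were lower in HIF- than in SCR cells in replicates 1, 2 and 3 (70%, 50% and 30%), against 52.9%, 51.1% and 51.3% of all genes. The lower genes included 18, 17 and 6 of the 27 mitotic genes and 11, 3 and 5 of the 13 replication genes. A difference beyond 0.5 log2 units was found in 8 genes in replicate 1, all lower in HIF- (RB1, TOP2A, TTK, TPX2, KIF11, CDC25C, RRM1 and MCM3), in 1 gene in replicate 2 (MKI67, higher) and in 0 in replicate 3. The share of all genes beyond 0.5 was not counted, so these numbers are not read as particular to the list. The spread of all genes was also widest in replicate 1, with an interquartile range of 0.44 log2 units, against 0.31 in replicate 2 and 0.23 in replicate 3. In replicate 1 the quartiles were -0.38 and 0.07 for the 50 genes and -0.24 and 0.19 for all genes. Replicates 1 and 3 gave the same sign for 14 of the 50 genes (28%), against 50.5% of all genes. Replicates 1 and 2 agreed in sign for 52% of them and 56.7% of all genes, and replicates 2 and 3 for 56% and 56.4%. The Spearman correlation of the differences across the 50 genes, which are not independent and share their arrays, was 0.28, 0.01 and 0.20 for these pairs in the order 1 with 2, 1 with 3 and 2 with 3.

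**Figure D4:**
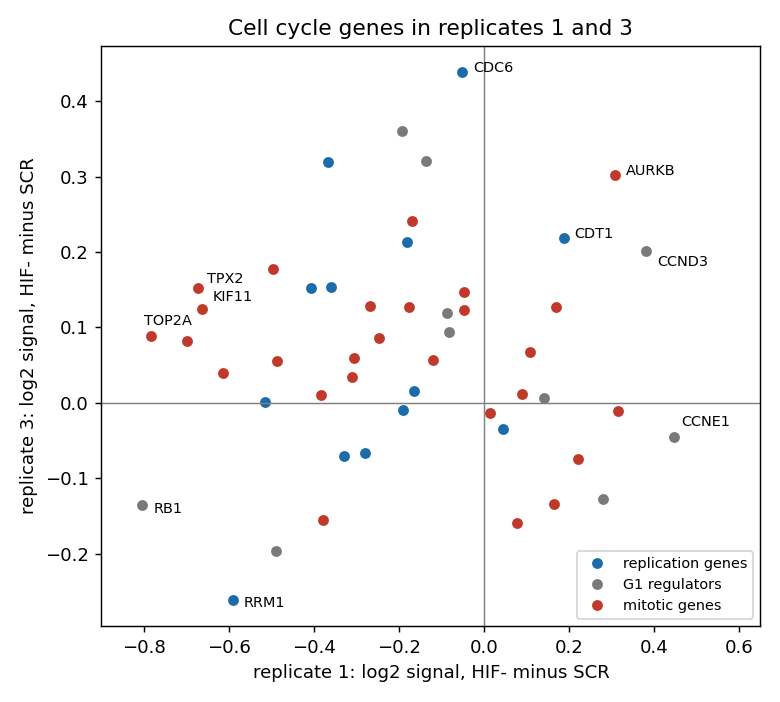
Difference in log2 signal, HIF- minus SCR, in replicate 1 (x axis) and replicate 3 (y axis) for the 50 genes tested, coloured by list. RRM1 and RB1 lie below 0 on both axes, CDT1, AURKB and CCND3 above 0 on both, and most mitotic genes lie at the upper left, with 14 of the 50 genes showing 1 sign on both axes.

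The direction in replicate 3 depended on which of its technical arrays were used. In that replicate 12 of the 50 genes had every HIF- array above every SCR array and 4 had every HIF- array below, where 13.2% and 13.1% of all genes did so. The median SD of a gene over the technical arrays was 0.12 among the 3 HIF- arrays and 0.10 among the 2 SCR arrays. With the first array of each group alone, 26 of the 50 genes were below 0 in replicate 3 and their median difference was -0.02, against 0.06 with all arrays.

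Other probes of the same gene symbol gave a further reading for 14 genes with several common probes. KIF23 gave nearly the same differences with its second probe (-0.49, -0.14 and 0.19) as with its main probe (-0.50, -0.17 and 0.18). CDC25C agreed in sign within each replicate over its 3 probes, at -0.61, -0.33 and -0.23 in replicate 1 and above 0 in replicates 2 and 3. The mean over replicates was -0.15 for its main probe but 0.03 and 0.08 for the others, so the sign of its estimate depended on the probe. The CCNE1 probes differed in sign in replicates 1 and 2. The main probe gave 0.45, 0.41 and -0.05, and a dim second probe gave -0.03, -0.31 and -0.11. The second CDK2 probe had differences of -0.27, 0.56 and 0.28, larger than the -0.08, 0.03 and 0.09 of the main probe. The mean over replicates also changed sign with the probe for BIRC5 (-0.04 and 0.08), PCNA (-0.0036, 0.16 and -0.07) and BUB3 (-0.02, 0.07 and 0.01). It kept its sign for AURKA, CDC25A, CDK1, CENPA, MCM7 and UBE2C.

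Genes of the same processes outside the list did not pass the adjusted test either. Of 129 further genes of replication, cell cycle control and mitosis, 121 were tested and 0 passed at an adjusted p under 0.05. At an unadjusted p under 0.05, 1 was higher in HIF- and 2 were lower, no more than the 3.41% of all genes that were higher and the 4.13% that were lower. Below 0 were 90, 73 and 51 of the 121 in replicates 1, 2 and 3 (74.4%, 60.3% and 42.1%), against 52.9%, 51.1% and 51.3% of all genes. The median log2 fold change was -0.05 for 40 genes of replication initiation and the fork, -0.04 for 32 cell cycle regulators and -0.10 for 49 genes of mitosis and cytokinesis, against -0.01 over all genes.

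CDKN1A, the CDK inhibitor p21 and a target of p53, was the one that was higher. Its log2 signal was 12.01, 11.26 and 10.37 in HIF- cells, against 11.54, 10.81 and 9.85 in SCR cells. The difference was even, at 0.47, 0.45 and 0.52, with a log2 fold change of 0.48 (SE 0.12, 95% interval 0.20 to 0.76, unadjusted p = 0.0046 and adjusted p = 0.34 from limma). DUT, the dUTPase that keeps uracil out of DNA, had signals of 8.20, 7.93 and 7.78 in HIF- cells, against 8.72, 8.30 and 8.40 in SCR cells. It was lower in each replicate, with a log2 fold change of -0.50 (SE 0.12, 95% interval -0.79 to -0.21, unadjusted p = 0.0046 and adjusted p = 0.34 from limma), and of -0.29 as the mean of all its common probes. PRIM2, a primase subunit, had signals of 4.33, 5.33 and 4.57 in HIF- cells and 4.55, 5.99 and 4.74 in SCR cells, near the bottom of the range, with a log2 fold change of -0.35 (SE 0.14, unadjusted p = 0.044 from limma). With the background offset of 50 the estimate of PRIM2 was -0.18, and without replicate 2 it was -0.19. PRIM2 was left out by the filter that required detection on every array of HIF- or of SCR cells.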

How the data were processed

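AGS cells were profiled on Illumina HumanRef-8 (replicates 1 and 2) and HumanHT-12 (replicate 3) BeadChips. The non-normalized tables that the authors deposited contain log2 signals, each with its detection p-value, and no depth applies to arrays, whose number limits the precision. The log2 values the authors deposited as processed served as an alternative. The methods name RMA and the beadarray package.

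Signals were returned to the linear scale, corrected with nec of limma 3.58.1 (offset 16), quantile-normalized within each array version and put on the log2 scale. Arrays of replicate 3 were averaged. Of the 24525 common probes, those dimmer than the array median in each of the 6 samples were left out (14686 kept), and the brightest probe stood for each gene. The platform annotation named the probes. limma was fitted over all 12195 genes and unnamed probes with the replicate as a block, since HIF- and SCR cells of a replicate share a chip (residual degrees of freedom 2, prior 5.25), with Benjamini-Hochberg adjustment, two-sided. The deviations of both groups of a replicate from the group means correlated at 0.623, 0.805 and 0.850, to which a shared array version alone can contribute. The rank rule of the methods was rebuilt with a running median absolute deviation over 501 genes, since its error model is only cited. Members, lists and alternatives were chosen with earlier results of these data known. Given in full were members at an unadjusted p under 0.05, in each list the 3 largest changes with 1 sign in all replicates and the 2 widest ranges between replicates, and other pathway genes at an unadjusted p under 0.05. CDC6, KIF11 and the other members described were chosen after their values were seen. Alternatives for the background were no correction and nec with an offset of 50. Other alternatives were scalings, filters, probes, technical arrays, fits and left-out replicates. The fit was also run on simulated data, with changes larger than the estimate of any member. Its power at the sizes estimated here was not tested.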

Additional observations from a re-analysis of the deposited data

Results flagged for a closer look

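A probe of CENPE, a kinetochore motor, that is on the HumanHT-12 chip alone, and so was used in no comparison between replicates, lay above the SCR arrays on every HIF- array of replicate 3. Its log2 signal was 8.68 to 8.89 on the 3 HIF- arrays and 8.56 to 8.57 on the 2 SCR arrays, a difference of 0.22. The common CENPE probe had a difference of 0.13 in that replicate and of -0.18 and 0.23 in replicates 1 and 2. The 5 other probes of members on that chip alone (BUB3, CDKN1B, KIF11, MAD2L1 and MCM3) did not separate the groups in this direction. It was thus 1 of 6 such probes, where 13.2% of all genes tested had every HIF- array above every SCR array in replicate 3. These arrays are technical repeats of 1 replicate.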

How the results depend on the processing

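No member was called at an adjusted p under 0.05 or by the rank rule under any alternative tried, including the methods' t-test after Benjamini-Hochberg adjustment and the top 5% rule. That t-test was run without pairing and called 0 of all 12195 genes after adjustment, so its 0 members say nothing about the list. The share of all genes called by the top 5% rule was not counted. Over all genes the adjusted calls of the limma fits ranged between 0 (no filter, and without replicate 1) and 50 (scaling to a common median). The 0 members in the fits with 0 calls over all genes are likewise uninformative. The number of members at an unadjusted p under 0.05 was 1 and became 2 with no background correction, scaling or a variance trend. It was 4 with the background offset of 50, with the authors' processed values or with no filter. It was 0 with the methods' t-test, which gave such a p for 116 of all 12195 genes. In these fits other than the t-test, 6.98% to 8.11% of all genes had such a p, against 7.54% in the fit reported. RRM1 was among them in every alternative with any, except without replicate 1 or 3. Among further pathway genes that count was 3 and became 5 with the background offset of 50 or the first technical array. It became 6 with processed values or no filter, 2 with the filter on detection, and 2 to 6 with a replicate left out. The median of the G1 regulators lay between -0.061 and 0.075 with a replicate left out, and the replication minus mitotic contrast between -0.059 and 0.066. That contrast was 0.0093 with the first technical array. Signs turned for MCM4 (0.024 with the mean of probes), PCNA (0.0096 with scaling, 0.012 with processed values, 0.026 with the mean of probes, -0.17 to 0.13 with a replicate left out) and CDKN1B (-0.025 with scaling). With a replicate left out, RRM2 lay between -0.066 and 0.28, CDKN1B between -0.11 and 0.16, TOP2A between -0.43 and 0.0095 and TPX2 between -0.41 and 0.0051. The cause of these shifts was not tested.

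With no replicate block (array version as covariate), 0 members and 1 further pathway gene had an unadjusted p under 0.05 (2.08% of all genes), and 2 genes of all passed the adjusted test, against 14 with the pairing. Few arrays and dim probes (E2F1, MKI67, MAD2L1, PRIM2) limit the precision.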
